A study of Mus musculus with 16 samples.

Results

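The genes described here are 10 of the 30701 genes tested: the mast cell proteases Mcpt1, Mcpt2, Mcpt4, Cma1, Tpsb2, Tpsab1 and Cpa3, and the receptor genes Kit, Fcer1a and Ms4a2. They were taken by gene symbol through the array's annotation, and each of the 10 had a single row in the value table. RNA came from the colon mucosa of male C57BL/6J mice and was profiled on 16 Affymetrix arrays, 1 per sample. Every mouse was homozygous for a loxP-flanked (floxed) Mcc gene, named for its mutation in colorectal cancers. Knockout (KO) mice, VILcreMccf/f, also carried Cre recombinase under the villin promoter, which is active in intestinal epithelium. Floxed Mcc outside the cells where that promoter was active, mast cells included, was therefore not targeted. Their Mccf/f siblings without Cre are called wild type (WT), although they too carried the floxed gene. From 6 weeks of age the mice were fed for 10 weeks, either with plain control feed or with feed that held 320 ppm of sulindac. Sulindac is an anti-inflammatory drug that inhibits cyclooxygenases. Tissue of sulindac-fed mice came from inflamed areas of the proximal colon alone, called lesions here, and tissue of control-fed mice from the matching normal mucosa. There were 6 WT control, 3 WT lesion, 3 KO control and 4 KO lesion arrays.

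Uninflamed mucosa of sulindac-fed mice was on no array. What the drug did and what the sampling of inflamed areas did therefore cannot be told apart. In RNA from whole mucosa, fewer cells of a type and less RNA per cell cannot be told apart either. No label states that the samples came from separate animals, so p-values measure the spread between these samples, which may be technical. Mcc itself lay between 6.39 and 6.71 on the log2 scale in the 7 KO arrays and between 7.06 and 7.40 in the 9 WT arrays, without overlap. Each sample description ends in a number, and these numbers form 2 separate series, a lower and a higher one. All 7 lesion arrays were of the lower series, the 3 KO controls of the higher, and the WT controls were split 3 and 3. The KO response is therefore confounded with the series, whereas the WT response could also be taken within the lower series.

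Mast cells are tissue-resident granulocytes that store proteases bound to proteoglycan in their granules and release them when IgE on their high-affinity receptor is cross-linked by antigen. They depend on the receptor tyrosine kinase Kit and its ligand, stem cell factor. In mice, mucosal mast cells of the intestinal epithelium and lamina propria contain the chymases Mcpt1 and Mcpt2, and expand with T cell help, as in worm infection. Connective-tissue mast cells of the submucosa, skin and peritoneum contain the chymases Mcpt4 and Cma1, the tryptases encoded by Tpsb2 and Tpsab1, and carboxypeptidase A3 (Cpa3), although this grouping is not strict.

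The chymase genes lie in a single cluster, and the promoters of the proteases are shown as a description. In the RefSeq gene order, Cma1, Cma2, Mcpt1, Mcpt2, Mcpt9, Mcpt4, Mcpt8 and Ctsg follow each other and lead into the granzymes, which end with Gzmb, while Tpsab1 neighbours Tpsb2. Promoter sequences were matched by symbol for 7 of the 10 genes in the RefSeq tables of GRCm38.p6, and Mcpt2, Tpsb2 and Tpsab1 had no entry. Each window spans 250 bases before and 50 bases after the start of the gene, 5′ to 3′ on the strand of the gene. Capitals mark the letters TGATAA or AGATAA, a core of the motif bound by GATA factors, searched on both strands.
Mcpt1, chr14:56017714-56018013, plus strand: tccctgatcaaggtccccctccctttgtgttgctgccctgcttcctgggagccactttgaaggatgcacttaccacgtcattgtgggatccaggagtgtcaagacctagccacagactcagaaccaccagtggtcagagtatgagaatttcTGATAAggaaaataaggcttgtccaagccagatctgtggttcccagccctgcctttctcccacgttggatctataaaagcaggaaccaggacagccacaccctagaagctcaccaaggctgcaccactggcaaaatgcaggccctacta
Mcpt4, chr14:56062261-56062560, minus strand: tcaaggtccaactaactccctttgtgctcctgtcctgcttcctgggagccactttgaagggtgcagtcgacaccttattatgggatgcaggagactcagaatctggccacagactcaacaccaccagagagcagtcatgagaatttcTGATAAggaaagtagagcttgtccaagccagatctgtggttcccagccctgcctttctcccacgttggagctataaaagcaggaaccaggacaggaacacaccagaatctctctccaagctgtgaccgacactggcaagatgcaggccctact
Cma1, chr14:55944626-55944925, minus strand: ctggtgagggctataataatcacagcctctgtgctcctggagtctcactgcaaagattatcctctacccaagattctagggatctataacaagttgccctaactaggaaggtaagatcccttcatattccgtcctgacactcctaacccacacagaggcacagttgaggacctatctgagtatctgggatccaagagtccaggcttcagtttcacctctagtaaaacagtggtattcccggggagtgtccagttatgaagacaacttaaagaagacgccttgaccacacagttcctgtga
Cpa3, chr3:20242132-20242431, minus strand: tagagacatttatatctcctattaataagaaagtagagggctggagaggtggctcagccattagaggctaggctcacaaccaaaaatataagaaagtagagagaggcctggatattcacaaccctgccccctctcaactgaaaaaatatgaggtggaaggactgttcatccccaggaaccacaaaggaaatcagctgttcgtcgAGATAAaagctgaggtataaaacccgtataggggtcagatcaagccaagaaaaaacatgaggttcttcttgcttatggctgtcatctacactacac
The Mcpt1 and Mcpt4 windows were 80.6% identical over 309 aligned columns, whereas the other 5 pairs of these 4 windows were 43.2% to 47.1% identical. TGATAA lay 99 bases before the start of Mcpt1 and 103 bases before that of Mcpt4, and AGATAA lay 46 bases before that of Cpa3. Neither TGATAA nor AGATAA occurred in the Cma1 window, and other forms of the motif were not searched in any window. Of all 32851 promoter windows of this length, 18.6% held such letters, so a match is a description and not a site. The E-box letters CATGTG and CACGTG, also searched on both strands, occurred in none of these 4 windows and in 20.4% of all windows. Because Mcpt1, Mcpt2 and Mcpt4 belong to a family with similar sequence, their probes may share signal. The probe sequences were not used here. The windows above lie mostly before the gene start, so their identity does not measure shared probe signal.

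Values are log2 expression as deposited, and a difference of 1 is a doubling. Different genes have different probes, so their levels are not ranked against each other. Mcpt4, Cma1, Cpa3, Fcer1a and Ms4a2 lay under the array's median on all 16 arrays, Mcpt1 and Mcpt2 on 12 of 16, and Tpsab1 on 9. Array medians ran from 4.90 to 5.05. The differences of genes this dim can be compressed on arrays, and the files give no detection call. Tpsb2 and Kit lay above the median on all 16 arrays.

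In WT lesions, 4 of the 10 genes passed the test: Mcpt2 and Cpa3 rose, and Tpsb2 and Kit fell. A gene was called where limma's adjusted p over all 30701 genes was under 0.05. In this comparison 15.3% of all genes were called, 6.98% as higher and 8.36% as lower. Centring all arrays on 1 median turned the 2143 higher and 2568 lower calls among all genes into 2351 and 1744. In KO lesions 3 of the 10 were called, Mcpt2 and Cpa3 as higher and Kit as lower. Of all genes 21.1% were called there, 8.98% as higher and 12.1% as lower. The median difference of the 10 genes was -0.03 in WT, where that of all genes was -0.06, and 0.04 in KO, where that of all genes was 0.01. A median near that of all genes thus held both the higher and the lower members.

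**Figure D1:**
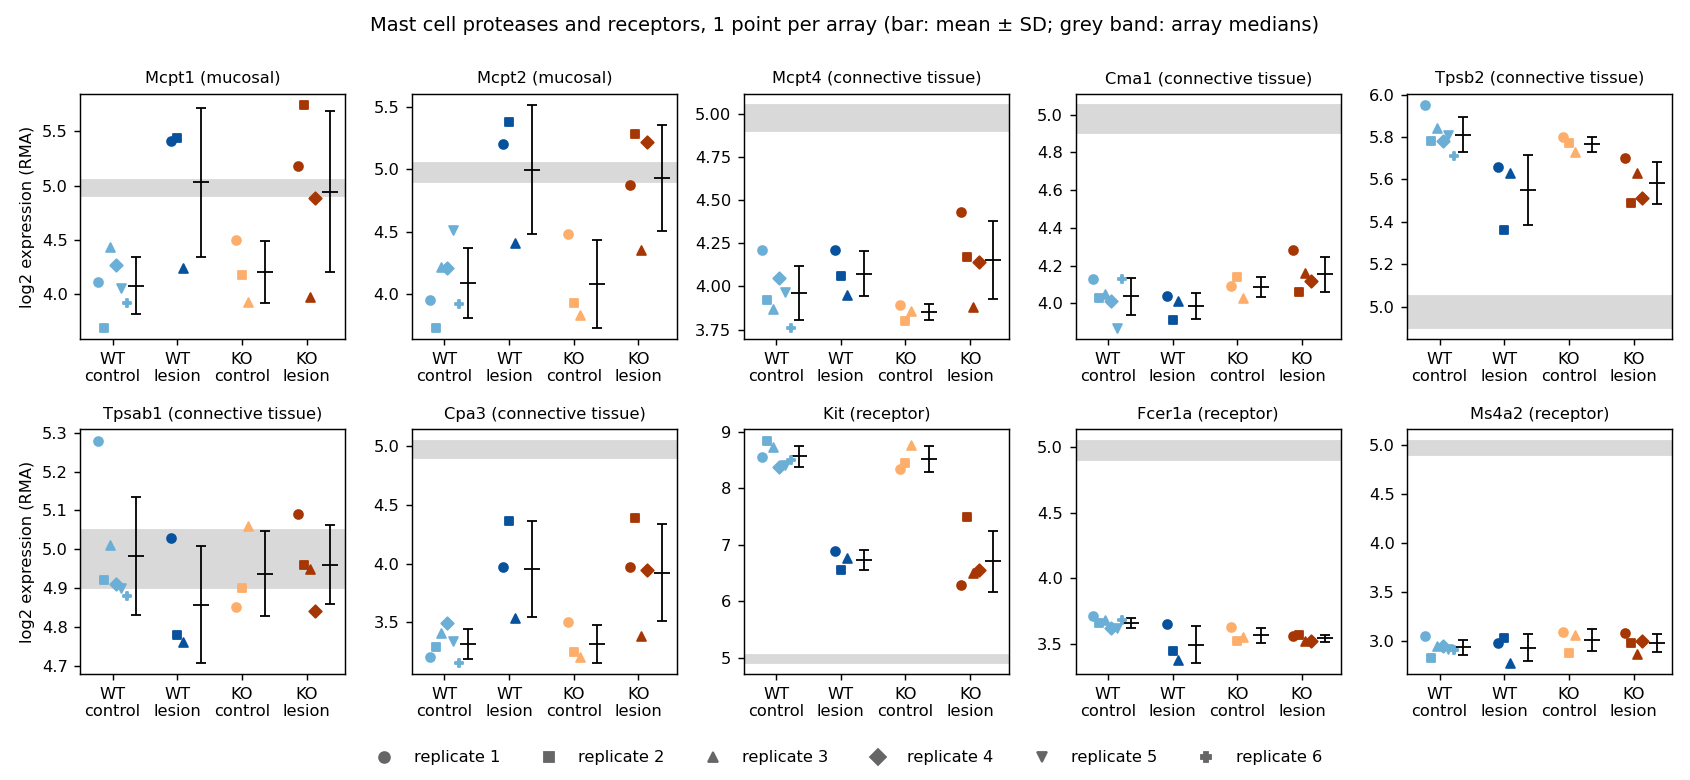
Each panel shows 1 gene, with log2 expression on the vertical axis and 1 point per array in the 4 groups; marker shapes give the replicate number, bars the mean ± SD, and the grey band the range of array medians. Mcpt1, Mcpt2 and Cpa3 spread widely in both lesion groups, with the third replicate lowest in each, and every lesion array lies below every control array for Kit.

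Mcpt2 encodes a mucosal chymase. It was at 3.95, 3.73, 4.22, 4.21, 4.51 and 3.92 in WT controls, and at 5.20, 5.38 and 4.41 in WT lesions. The first and second lesion arrays lay above every control and the third lay inside the control range. The mean rose from 4.09 ± 0.28 (SD, n = 6) to 5.0 ± 0.51 (SD, n = 3), a log2 change of 0.91 (SE 0.24, limma adjusted p = 0.0169) or 1.87-fold. Within the lower number series the WT change was 1.03 (limma adjusted p = 0.0287). In KO, Mcpt2 was at 4.48, 3.93 and 3.83 in controls and at 4.87, 5.28, 4.35 and 5.22 in lesions, so that the third lesion again lay inside the control range. The KO mean rose from 4.08 ± 0.35 (SD, n = 3) to 4.93 ± 0.43 (SD, n = 4), a change of 0.85 (SE 0.26, limma adjusted p = 0.0281). The call was lost in several alternatives. Without the first or the second WT lesion the WT change was 0.80 or 0.71 (limma adjusted p = 0.0772 and 0.115). Without KO control 2 or 3, or KO lesion 2 or 4, the adjusted p in KO was 0.0960, 0.101, 0.0783 and 0.0796. The KO change was 0.77 with the replicate block (limma adjusted p = 0.0552), and it was 1.10 in a fit that included the number series (adjusted p = 0.107). With only the KO groups in the fit the adjusted p was 0.0598. In all, Mcpt2 was called in 11 of 18 alternatives in KO and 19 of 21 in WT.

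Mcpt1, the other mucosal chymase, whose protein is a serum marker of intestinal mast cell activation, had differences of similar size but did not pass the test. It was at 4.11, 3.69, 4.43, 4.27, 4.06 and 3.92 in WT controls and at 5.41, 5.44 and 4.24 in WT lesions. As for Mcpt2, the third WT lesion lay inside the control range and the others lay above it. The WT difference was 0.95 (SE 0.32, 95% interval 0.27 to 1.63, limma adjusted p = 0.0578). Without the third WT lesion it was 1.35 (limma adjusted p = 0.0141). Without the first it was 0.76 (adjusted p = 0.196), and without the second 0.74 (adjusted p = 0.250). Within the lower number series it was 0.95 (limma adjusted p = 0.103). In KO, Mcpt1 was at 4.50, 4.18 and 3.93 in controls and at 5.18, 5.74, 3.97 and 4.89 in lesions. The third KO lesion was again at control level, and the other 3 lay above every control. The KO difference was 0.74 (SE 0.35, 95% interval 0.01 to 1.48, limma adjusted p = 0.156), and without the third KO lesion it was 1.07 (limma adjusted p = 0.0155). Without the second KO lesion it was 0.48 (adjusted p = 0.373). In all, Mcpt1 was called in 3 of 21 alternatives in WT and 1 of 18 in KO.

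Cpa3 encodes carboxypeptidase A3, a granule exopeptidase that also marks mast cell and basophil precursors. It was at 3.20, 3.29, 3.41, 3.49, 3.34 and 3.15 in WT controls and at 3.97, 4.36 and 3.54 in WT lesions. Every WT lesion lay above every WT control, the third by the least. The mean rose from 3.31 ± 0.13 (SD, n = 6) to 3.96 ± 0.41 (SD, n = 3), by 0.64 (SE 0.18, limma adjusted p = 0.0255). Among KO arrays Cpa3 was at 3.50, 3.25 and 3.20 in controls and at 3.97, 4.39, 3.38 and 3.95 in lesions, and the third lesion lay inside the control range. The KO change was 0.60 (SE 0.20, limma adjusted p = 0.0400). Cpa3 was called in 15 of 20 alternatives in WT. The call was lost within the lower number series (0.66, limma adjusted p = 0.0571) and with the series as a covariate (0.66, adjusted p = 0.0617). It was also lost without WT lesion 1 (0.64, adjusted p = 0.0714), without WT lesion 2 (0.44, adjusted p = 0.179) and with the replicate block (adjusted p = 0.0599). In KO, Cpa3 was called in 5 of 17 alternative analyses, and not with the replicate block (0.58, adjusted p = 0.0639) or with the number series as a covariate (0.63, adjusted p = 0.277).

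Mcpt1, Mcpt2 and Cpa3 ranked the lesion arrays alike at their extremes. In both genotypes the second lesion replicate was highest and the third lowest for each of the 3 genes. The third lesions were also the lowest of their groups in the means of the neutrophil and pan-leukocyte markers. The mean log2 level of the 6 neutrophil markers was 8.0, 7.80 and 7.11 in the WT lesions, by replicate, and 9.04, 9.95, 8.13 and 9.71 in the KO lesions. That of the 4 pan-leukocyte markers was 7.49, 7.57 and 7.37 in WT lesions and 8.24, 8.47, 7.66 and 8.42 in KO lesions. The third lesion was not the lowest for dendritic cell and monocyte markers in WT (7.59, 7.65 and 7.60), nor in KO for basophil markers (5.56, 5.44, 5.46 and 5.37) or eosinophil markers (4.85, 4.35, 4.54 and 4.32). The part of these cells in the result was not tested.

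The tryptase gene Tpsb2 fell in WT lesions. Its product, mMCP-6, is the main tryptase of connective-tissue mast cells. Tpsb2 was at 5.95, 5.78, 5.84, 5.78, 5.81 and 5.71 in WT controls and at 5.66, 5.36 and 5.63 in WT lesions, without overlap. The mean fell by 0.26 on the log2 scale (SE 0.08, limma adjusted p = 0.0267), from 5.81 ± 0.08 (SD, n = 6) to 5.55 ± 0.17 (SD, n = 3). The change was -0.31 within the lower number series (limma adjusted p = 0.111), -0.17 without the second WT lesion (adjusted p = 0.195) and -0.22 with arrays centred on 1 median (adjusted p = 0.0718). The adjusted p was also 0.0571 with only the WT groups in the fit and 0.0548 with every row tested. In KO, Tpsb2 was at 5.80, 5.77 and 5.73 in controls and at 5.70, 5.49, 5.63 and 5.51 in lesions. These groups did not overlap either, but the difference of -0.18 (SE 0.08, limma adjusted p = 0.134) did not pass.

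Tpsab1, Mcpt4 and Cma1, of the same connective-tissue type, did not pass the test in either genotype. Tpsab1, encoding the tryptase mMCP-7, is known to be defective in C57BL/6 mice and is listed as a transcribed pseudogene in the RefSeq table. It was at 5.28, 4.92, 5.01, 4.91, 4.90 and 4.88 in WT controls and at 5.03, 4.78 and 4.76 in WT lesions, with a difference of -0.13 (95% interval -0.33 to 0.07, limma adjusted p = 0.407). In KO it was at 4.85, 4.90 and 5.06 in controls and at 5.09, 4.96, 4.95 and 4.84 in lesions, and the difference was 0.02 (95% interval -0.20 to 0.24, limma adjusted p = 0.923). The first WT control was the highest of all 16 arrays, and all groups overlapped.

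Mcpt4, the chymase closest in activity to human chymase, was at 4.21, 3.92, 3.87, 4.05, 3.97 and 3.76 in WT controls and at 4.21, 4.06 and 3.95 in WT lesions. The difference was 0.11 (95% interval -0.12 to 0.34, limma adjusted p = 0.548), and the lesions lay inside the control range. In KO it was at 3.89, 3.80 and 3.86 in controls and at 4.43, 4.17, 3.88 and 4.14 in lesions, with a difference of 0.30 (95% interval 0.05 to 0.55, limma adjusted p = 0.0838). The third KO lesion was again the lowest and alone overlapped the controls, and without it the difference was 0.40 (limma adjusted p = 0.0171). With the replicate block Mcpt4 was called in KO (0.30, adjusted p = 0.0390). In all, it was called in 3 of 17 alternatives in KO. Cma1, the mouse alpha-chymase mMCP-5, ran from 3.87 to 4.13 in WT controls (median 4.04), and was at 4.04, 3.91 and 4.01 in WT lesions. Cma1 in KO was at 4.09, 4.14 and 4.03 in controls and at 4.28, 4.06, 4.16 and 4.12 in lesions. Its differences were -0.05 (95% interval -0.20 to 0.10) in WT and 0.07 (95% interval -0.09 to 0.23) in KO. Because Cma1 lay under the array median on all 16 arrays, where differences can be compressed, these narrow intervals do not exclude a larger change.

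**Figure D2:**
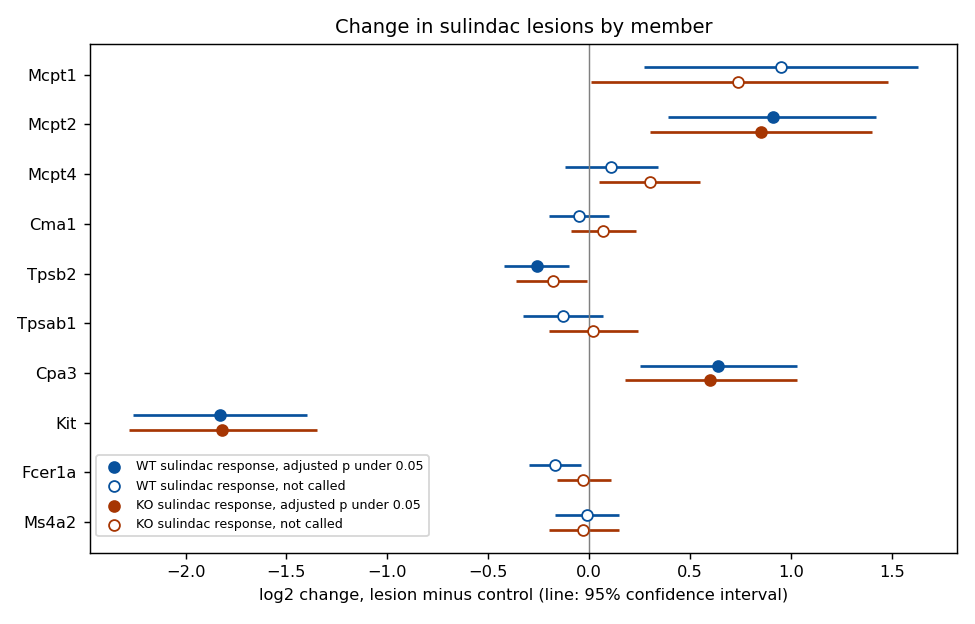
Log2 change between lesions and controls of the same genotype for each of the 10 genes, with 95% confidence intervals; filled points had a limma adjusted p under 0.05. Mcpt2 and Cpa3 lie to the right of 0 with filled points in both genotypes, Kit lies near -1.8 in both, and Tpsb2 is filled in WT alone.

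The mucosal and connective-tissue types were set against each other within each array, as the mean of Mcpt1 and Mcpt2 minus the mean of Mcpt4, Cma1, Tpsb2, Tpsab1 and Cpa3. Levels of different probes cannot be compared, so only the change of this difference between arrays is read, with no test. It was -0.53, -0.68, -0.11, -0.21, -0.09 and -0.41 in WT controls and 0.72, 0.92 and -0.05 in WT lesions. The KO controls had differences of 0.06, -0.32 and -0.49, and the KO lesions of 0.33, 0.90, -0.24 and 0.54. Group means moved from -0.34 ± 0.24 (SD, n = 6) to 0.53 ± 0.51 (SD, n = 3) in WT, by 0.87, and from -0.25 ± 0.28 (SD, n = 3) to 0.38 ± 0.48 (SD, n = 4) in KO, by 0.64. The third KO lesion lay among the controls, and the third WT lesion lay just above the WT controls. The movement was mainly in the mucosal mean. It reached 5.30, 5.41 and 4.33 in WT lesions and 5.03, 5.51, 4.16 and 5.05 in KO lesions. It was 3.71 to 4.33 in WT controls and 3.88 to 4.49 in KO controls. The connective-tissue mean stayed between 4.33 and 4.69 on all 16 arrays, and within it Cpa3 and Tpsb2 moved in opposite directions. In KO this mean also rose a little, from 4.43, 4.37 and 4.38 in controls to 4.69, 4.61, 4.40 and 4.51 in lesions. Mcpt4, Cma1 and Cpa3 within it lay under the array medians on all 16 arrays. With Cpa3 left out of the connective-tissue type the difference moved by 1.01 in WT and 0.75 in KO.

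**Figure D3:**
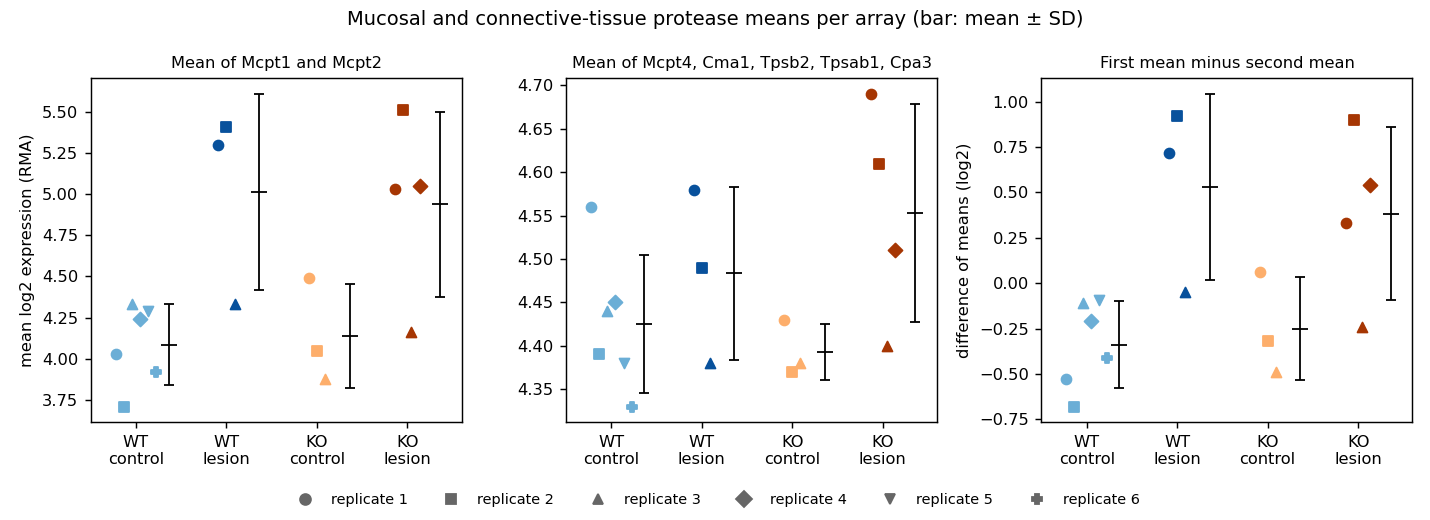
Mean log2 expression of the mucosal chymases, of the connective-tissue proteases, and the difference between both, with 1 point per array, the marker giving the replicate number and bars giving mean ± SD. The mucosal mean is higher in most lesions, except for the third replicate of each genotype, while the connective-tissue mean stays between 4.33 and 4.69.

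Kit showed the largest change of the 10 genes, in the direction opposite to the mucosal proteases. It was at 8.55, 8.85, 8.74, 8.38, 8.41 and 8.50 in WT controls and at 6.90, 6.55 and 6.76 in WT lesions. The KO controls had 8.34, 8.45 and 8.78 and the KO lesions 6.28, 7.49, 6.51 and 6.55. No lesion overlapped a control, and the second KO lesion was the highest of the 7. The mean fell by 1.83 on the log2 scale in WT (SE 0.20, limma adjusted p = 1.85e-05), or 3.56-fold, and by 1.82 in KO (SE 0.22, limma adjusted p = 2.63e-05), or 3.53-fold. Within the lower number series the WT change was -1.97 (limma adjusted p = 4.76e-05). With the series as a covariate, which the WT controls alone link, the KO change was -2.10 (limma adjusted p = 8.55e-04). Kit was called in all 21 alternative analyses of the WT response and all 18 of the KO response, between -1.97 and -1.74 in WT and between -2.10 and -1.62 in KO.

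Kit is also made by the interstitial cells of Cajal, the pacemaker cells of gut muscle, and by deep crypt secretory cells of the colon, so both marker lists are given beside it. Of 4 measured markers of interstitial cells of Cajal, 2 fell in WT and 1 fell and 1 rose in KO. Of all genes 8.36% fell in WT, and 12.1% fell and 8.98% rose in KO. The mean level of the list ran from 7.18 to 7.56 in WT controls, 6.79 to 7.05 in WT lesions, 7.21 to 7.73 in KO controls and 6.80 to 7.02 in KO lesions. The secreted matrix protein Thbs4 changed by -1.26 in WT (limma adjusted p = 0.0016) and by -1.80 in KO (adjusted p = 1.04e-04). The calcium channel Cacna1h changed by -0.49 in WT (adjusted p = 0.0033) and was at -0.31 in KO (adjusted p = 0.0588). The kinase Prkcq rose by 0.25 in KO (adjusted p = 0.0236). Ano1, the chloride channel that defines these cells, is named after its values were seen, and its differences were -0.22 in WT and -0.23 in KO (adjusted p = 0.545 and 0.571). Prkcq lay under the array medians on 15 of 16 arrays, and the other 3 on none.

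Of 4 measured markers of deep crypt secretory cells, which also include goblet cell genes, 1 fell in WT and 4 fell in KO. The share of all genes that fell was 8.36% in WT and 12.1% in KO. The markers' mean level was 10.0 to 10.6 in WT controls and 9.73 to 10.17 in WT lesions. In KO it was 10.61 to 10.64 in controls and 8.88 to 9.82 in lesions. Reg4, the lectin that defines these cells, was at 0.18 in WT (limma adjusted p = 0.752) and fell by 1.34 in KO (adjusted p = 0.0131). Spdef, a transcription factor of goblet cells, fell by 0.79 in WT (adjusted p = 0.0031) and by 1.20 in KO (adjusted p = 1.44e-04). Spink4 and Agr2, a secreted inhibitor and a mucin chaperone, changed by -1.49 and -1.28 in KO (adjusted p = 4.51e-04 and 2.79e-04). None of the 8 smooth muscle markers was called in either response. Their mean ran from 5.90 to 6.69 in WT controls, 6.23 to 6.28 in WT lesions, 5.86 to 6.30 in KO controls and 6.02 to 6.70 in KO lesions. The part of these cells in the lower Kit level was not tested.

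The IgE receptor genes Fcer1a and Ms4a2 did not pass the test in either genotype. Fcer1a, the chain that binds IgE, ran from 3.62 to 3.71 in WT controls (median 3.67) and was at 3.65, 3.45 and 3.38 in WT lesions. WT lesions 2 and 3 lay under every control, and the difference was -0.17 (95% interval -0.30 to -0.04, limma adjusted p = 0.0724). Without the first WT lesion it was -0.25 (limma adjusted p = 0.0107). Fcer1a was called in 2 of 20 alternatives in WT. The KO values were 3.63, 3.52 and 3.55 in controls and 3.56, 3.57, 3.52 and 3.52 in lesions, a difference of -0.03 (95% interval -0.16 to 0.11, limma adjusted p = 0.843). Ms4a2, the beta chain that amplifies the receptor's signal, ran from 2.82 to 3.05 in WT controls, and was at 2.98, 3.03 and 2.77 in WT lesions. Ms4a2 in KO was at 3.09, 2.88 and 3.06 in controls and at 3.08, 2.98, 2.86 and 3.0 in lesions. Its differences were -0.01 (95% interval -0.17 to 0.15) and -0.03 (95% interval -0.20 to 0.15), and the groups overlapped.

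None of the 10 genes differed between genotypes in limma's test. On the control diet their differences, KO minus WT, ran from -0.11 for Mcpt4 to 0.12 for Mcpt1, each with an adjusted p of 0.9995. None had an unadjusted p under 0.05, whereas 641 of the 30701 genes tested did. By adjusted p, 0% of all genes were called. Mcc itself was therefore not called either, although its values did not overlap between genotypes. A lack of calls here thus does not show equal levels. The 95% interval was -0.56 to 0.80 for Mcpt1, -0.52 to 0.50 for Mcpt2 and -0.48 to 0.38 for Kit. Between lesions the differences ran from -0.08 for Mcpt1 to 0.17 for Cma1. Here 0.306% of all genes were called, 94 in number, and 2 with the replicate number as a block. Cma1 was the 1 member with an unadjusted p under 0.05 (95% interval 0.01 to 0.32, limma adjusted p = 0.348). Among the 30701 genes tested, 4127 had an unadjusted p under 0.05 between lesions, so such a p was common. The KO lesions of Cma1, from 4.06 to 4.28, lay above its WT lesions, from 3.91 to 4.04.

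The interaction of genotype with diet compares both responses directly, and none of the 10 genes passed it or had an unadjusted p under 0.05. Of all genes 0.00326% were called, a single gene, while 3422 of the 30701 genes had an unadjusted p under 0.05. The KO response minus the WT response was -0.21 for Mcpt1 (95% interval -1.21 to 0.80), -0.05 for Mcpt2 (-0.81 to 0.70), -0.04 for Cpa3 (-0.61 to 0.54) and 0.08 for Tpsb2 (-0.16 to 0.32). It was 0.02 for Kit (-0.62 to 0.65) and 0.14 for Fcer1a (-0.05 to 0.33, limma adjusted p = 0.511). The interval of Mcpt1 thus spans values as large as its response in either genotype. limma-trend with robust moderation also called none of the 10 genes in the genotype comparisons and the interaction.

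Of 10 other measured genes of the chymase and tryptase families, 1 rose and 1 fell in each genotype, beside 15.3% of all genes called in WT and 21.1% in KO. The median difference was -0.08 in WT and 0.17 in KO, where that of all genes was -0.06 and 0.01. Gzmb, granzyme B, a protease of cytotoxic lymphocytes that also lies in the chymase cluster, rose by 0.80 in WT (limma adjusted p = 0.0026) and by 1.0 in KO (adjusted p = 5.73e-04). Tpsg1, a membrane-anchored tryptase, fell by 0.73 in WT (adjusted p = 3.03e-04) and by 0.92 in KO (adjusted p = 5.11e-05), the direction of Tpsb2.

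Other mast cell genes moved both ways. Of 19 measured, 4 rose and 4 fell in WT, and 5 rose and 5 fell in KO, with medians of -0.06 and 0.03. The shares of all genes were 6.98% higher and 8.36% lower in WT, and 8.98% and 12.1% in KO. Hdc, which makes histamine and is also expressed by neutrophils and other myeloid cells, rose by 1.59 in WT (limma adjusted p = 0.0043) and by 3.21 in KO (adjusted p = 1.81e-05). Srgn, the granule proteoglycan serglycin of many leukocytes, rose by 1.64 in WT (adjusted p = 1.15e-05) and by 2.28 in KO (adjusted p = 6.04e-07). Rgs13, a regulator of G-protein signalling, fell by 1.79 in WT (adjusted p = 0.0026) and by 1.96 in KO (adjusted p = 0.0016). Maob, a monoamine oxidase, fell by 1.95 in WT (adjusted p = 4.85e-04) and by 2.41 in KO (adjusted p = 1.04e-04). Which cells of the mucosa held the Rgs13 and Maob transcripts cannot be told from these arrays. Slc18a2 and Mrgprb2, the vesicular monoamine transporter and the receptor for basic secretagogues, were not called, with differences between -0.11 and 0.09. They are named after their values were seen.

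Genes that act downstream of the IgE receptor and Kit rose in lesions more often than they fell. Of 14 measured, 9 rose and none fell in WT, and 11 rose and none fell in KO, with medians of 0.44 and 0.58. Of all genes, 6.98% rose and 8.36% fell in WT, and 8.98% and 12.1% in KO, with medians of -0.06 and 0.01. The shared receptor gamma chain Fcer1g rose by 1.58 in WT (limma adjusted p = 1.03e-06) and by 1.88 in KO (adjusted p = 2.93e-07). The adaptor Lcp2 rose by 1.69 in WT (adjusted p = 9.25e-06) and by 2.50 in KO (adjusted p = 2.76e-07). The kinase Fyn rose by 0.73 and 0.95 (adjusted p = 1.48e-05 and 1.52e-06), and the phospholipase Plcg1 by 0.67 and 0.97 (adjusted p = 2.07e-04 and 9.04e-06), in WT and KO. Most of these genes also serve other leukocyte receptors. Of the 4 pan-leukocyte markers, 3 rose in WT and 4 in KO, with medians of 1.54 and 2.03, and their mean ran from 5.83 to 6.05 in WT controls, 7.37 to 7.57 in WT lesions, 5.95 to 6.46 in KO controls and 7.66 to 8.47 in KO lesions. Their part in the rise of the signalling genes was not tested.

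Among growth factors, cytokines and receptors that act on mast cells, 6 of 18 measured rose and none fell in WT, and 7 rose and 1 fell in KO. The median difference was 0.07 in WT and 0.20 in KO. Over all genes the median was -0.06 and 0.01. There 6.98% rose and 8.36% fell in WT, and 8.98% and 12.1% in KO. Il33, an alarmin that activates mast cells, rose by 2.43 in WT (limma adjusted p = 0.0011) and by 3.77 in KO (adjusted p = 3.49e-05). Cxcr2, a chemokine receptor of mast cell progenitors and above all of neutrophils, rose by 1.19 and 3.09 (adjusted p = 0.0109 and 5.74e-06). Il4ra, a receptor chain for interleukins 4 and 13, rose by 1.60 and 2.25 (adjusted p = 1.43e-06 and 7.51e-08). Tgfb1, which induces Mcpt1 in cultured mast cells, rose by 1.08 and 1.45 (adjusted p = 2.20e-05 and 1.71e-06). Kitl, the ligand of Kit and named after its values were seen, was at -0.48 in WT (adjusted p = 0.0544) and fell by 0.77 in KO (adjusted p = 0.0041).

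**Figure D4:**
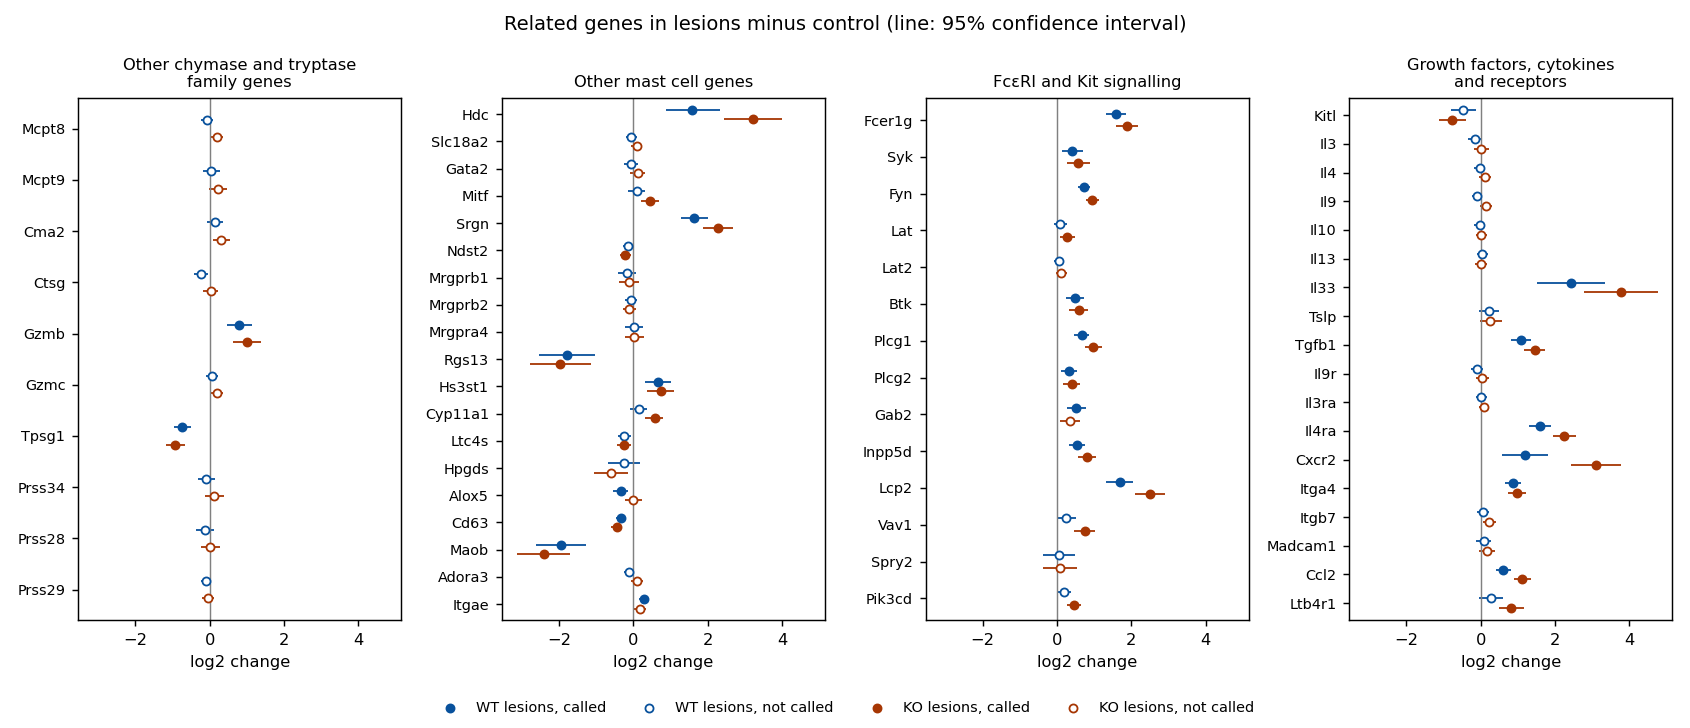
Log2 change between lesions and controls of the measured genes of the related mast cell lists, with 95% confidence intervals; filled points had a limma adjusted p under 0.05. Il33, Hdc, Srgn, Lcp2 and Fcer1g lie to the right in both genotypes, and Rgs13 and Maob to the left.

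Markers of other cells that could hold some of these transcripts were counted the same way. Beside these counts, 6.98% of all genes were higher and 8.36% lower in WT, and 8.98% and 12.1% in KO. Of 5 basophil markers, the integrin Itga2, which epithelium also expresses, rose in both genotypes, by 1.17 in WT and 1.39 in KO (limma adjusted p = 9.77e-05 and 2.65e-05), and no other was called. The list's mean ran from 5.07 to 5.25 in WT controls, 5.33 to 5.39 in WT lesions, 5.0 to 5.14 in KO controls and 5.37 to 5.56 in KO lesions. The defining basophil genes Mcpt8 and Cd200r3, named for that role after their values were seen, lay under the array medians on all 16 arrays. Of 6 measured eosinophil markers, 1 fell in WT and 1 rose in KO. Siglecf, a lectin, fell by 0.36 in WT (adjusted p = 0.0068), and Il5ra, the interleukin 5 receptor, rose by 2.25 in KO (adjusted p = 0.0029).

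Of the 6 neutrophil markers, all 6 rose in both genotypes, with medians of 2.46 in WT and 4.50 in KO. Of all genes 15.3% were called in WT and 21.1% in KO, as higher or lower. Of 7 dendritic cell and monocyte markers, 5 rose in WT and 6 in KO. Of 6 measured fibroblast markers 5 rose in each genotype, and the list's mean went from 5.98 to 6.23 in WT controls to 7.13 to 7.29 in WT lesions, and from 5.84 to 6.26 in KO controls to 7.01 to 7.48 in KO lesions. Of 5 mesothelial markers 1 fell in WT and none was called in KO. Of 8 epithelial markers, 1 rose and 1 fell in WT, and 5 rose and 1 fell in KO. In both genotypes, lesions thus differed from control mucosa in most neutrophil, dendritic cell and monocyte, and fibroblast markers. Most epithelial markers also differed in KO. The part of any of these cells in the levels of the 10 genes was not tested.

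The genes at or above the median level whose pattern within groups was most like that of Mcpt1 and Tpsb2 are named by rule. Likeness was Pearson's r between deviations from the group means over the 16 arrays, taken among 15351 genes at or above the median level, as a description of arrays that share sample and library. Among the members, Cpa3 had r = 0.92 and Mcpt2 r = 0.84 with Mcpt1, but Cpa3 lay under that level and was not a candidate. For Mcpt1 the highest candidates were Ifi204 (r = 0.94, Spearman's rho 0.81), Ifi211 (r = 0.91, rho 0.84), Oas2 (r = 0.91, rho 0.87), Dhrs11 (r = 0.89, rho 0.66) and Guca2a (r = 0.87, rho 0.74). Ifi204, Ifi211 and Oas2 are known as interferon-induced genes, Guca2a encodes guanylin of surface epithelium and Dhrs11 a dehydrogenase. Between lesions and controls these genes moved in different directions. Ifi204 rose by 2.86 in WT and 3.68 in KO, whereas Guca2a changed by -1.59 in WT and -1.67 in KO (limma adjusted p = 9.87e-08, 1.27e-08, 1.34e-04 and 1.08e-04).

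For Tpsb2 the highest were Polrmt (r = 0.91, rho 0.93), Zkscan17 (r = 0.90, rho 0.91), Zfp358 (r = 0.90, rho 0.86), Mafg (r = 0.89, rho 0.86) and Insyn2a (r = 0.87, rho 0.82). Polrmt is the mitochondrial RNA polymerase and Mafg a small Maf factor. Of these 5 genes, Zfp358 fell by 0.33 in WT (limma adjusted p = 0.0321) and Mafg rose by 0.24 in KO (adjusted p = 0.0480). Members with a mean under the median of all genes, such as Cpa3 and Fcer1a, were not among the candidates.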

How the data were processed

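The deposited values are log2 expression per transcript cluster. Per the submitters' processing notes they were made with RMA (background correction, quantile normalisation and probe summary) in Affymetrix Power Tools 1.16.1. A genome build is not given in the sources used here. Of 72688 rows, 31258 had 1 gene symbol in GEO's platform annotation, 1492 had several and 39938 had no entry. Old symbols were replaced through RefSeq's gene table of GRCm38.p6. The highest-mean row was kept for the 442 genes with several, which left 30701. No arrays of a group were duplicates (r from 0.980 to 0.991). The number of arrays limits the precision.

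A single limma fit (version 3.58.1, R 4.3.3) of the 4 group means over 16 arrays gave two-sided tests of 5 comparisons, each with Benjamini-Hochberg adjustment over all genes. In simulated data for the WT response, limma recovered 92.5% of log2 changes of 1 and 61.2% of those of 0.5. Each simulated gene had the same spread in all groups, and only a small part of the genes was changed. Mcpt1 had an SD of 0.26 in WT controls and 0.69 in WT lesions, so these shares need not hold for it. Samples with the same replicate number deviated together in the genotype comparison on sulindac (r = 0.465, 0.296 and 0.540), so its block is given beside it. Alternatives covered scaling, filters, array weights, the number series, the replicate block and leaving out each array.

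The members and gene lists were chosen with earlier results of these data known. All 10 members are named, with at most 4 called genes per list, those of largest change. So are the 5 genes at or above the median level that were most like Mcpt1 and Tpsb2.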

Additional observations from a re-analysis of the deposited data

Results flagged for a closer look

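Tpsab1 in the first WT control array, at 5.28, stood apart from the other 5 WT controls, which lay between 4.88 and 5.01. Of the sets of 4 to 6 arrays, 20 were examined in this way, and chance alone sets about 1 in 20 apart.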

How the results depend on the processing

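Of the 10 genes, 4 were called in the WT response and 3 in the KO response. The WT count was 2 within the lower number series, and it ran from 1 to 5 when single arrays were left out, with 1 without the second WT lesion and 5 without the third. Among all genes, the WT count of 4711 was 3640 within the lower series, 3337 without the second lesion and 3155 without the third. The KO count was 1 with only the groups compared, 1 with the number series as a covariate and 5 with array weights. It ran from 1 to 5 when single arrays were left out, with 1 without KO control 2 or 3 or KO lesion 2 or 4, and 5 without KO lesion 3. Among all genes, 4695 were called in KO with only the groups compared and 8534 with array weights. Without KO control 2 or 3 the number was 5409 or 6149, and without KO lesion 2, 4 or 3 it was 5839, 5400 or 7003. With the replicate block the counts were 3 in WT and 2 in KO, and 0 in the genotype comparisons and the interaction. In KO it kept the call of Kit, lost those of Mcpt2 and Cpa3 and gained Mcpt4, and in WT it lost Cpa3. Among all genes, 3532 were called with the block in WT and 5798 in KO. The replicate numbers of the WT response (r = 0.348, 0.171 and 0.097), the KO response and the control diet did not pair the arrays by the rule used. No called difference reversed its direction in the alternatives run. Among all genes, the count of 94 on sulindac was 2 with the block, 1 with only the groups compared, 448 higher and 265 lower with array weights, 58 with the series as a covariate, 26 with arrays centred, 5 with all rows tested, and 4 to 1695 when single arrays were left out. The KO count of 6467 was 2511 with the series as a covariate. The count of 1 in the interaction was up to 517, without KO lesion 3. The filter on dim genes left out Mcpt4, Cma1, Cpa3, Fcer1a and Ms4a2, which had no value there.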
